A study of Homo sapiens with 27 samples.

Results

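ETV1, ETV4 and ETV5, the 3 genes of the PEA3 group of ETS transcription factors, and EGR1, EGR2 and EGR3, zinc finger factors of the early growth response family, were followed through 27 RNA-seq libraries of A375 cells, an established line of human melanoma driven by mutant BRAF. These 6 genes were chosen by name as factors induced by the kinase ERK, out of 58721 genes in the count table. The libraries made 9 groups of 3, from 3 cell populations in 3 treatments. TADA2B knockout cells were made with guide 2 or with guide 1, and control cells carried a guide against GFP and are labelled wild type. Each population was given 1 µM vemurafenib, an inhibitor of mutant BRAF, 20 nM trametinib, an inhibitor of MEK, or the solvent DMSO, for 24 h. TADA2B is a subunit of the histone-acetylating SAGA complex, and all 9 groups share the A375 background and the polyA library kit.

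Genes of both families are transcribed when growth factor signalling reaches ERK. EGR genes belong to the immediate early genes, whose promoters hold CArG boxes, the binding sites of serum response factor (SRF), and SRF works there with ternary complex factors such as ELK1 that ERK phosphorylates. PEA3 genes are held down by the repressor capicua (CIC), which ERK signalling inactivates, and the PEA3 proteins are degraded through the ubiquitin ligase COP1. In BRAF-mutant melanoma the cascade is always on, and ETV1, ETV4 and ETV5 belong to the transcripts used to read its output.

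Library totals lay between 67502300 and 92513726 counts, and all 6 genes were among the 25199 that passed the filter on low counts. The TADA2B transcript, which a guide RNA need not remove, averaged 28.6 CPM with guide 2, 30.4 CPM with guide 1 and 31.2 CPM in control cells in DMSO. CPM is the usual read count scaled to library size, here the library total times its TMM factor. In vemurafenib and trametinib the TADA2B transcript was called lower in knockout cells, at 69.6% and 77.4% of control, and its exons overlap those of CCDC96 on the other strand. The melanocyte lineage factors SOX10 and MITF were present in all 27 libraries, at 267 CPM or more and 52.1 CPM or more, whereas MLANA did not exceed 2.08 CPM and TYR was at 0 in 9 libraries. PMEL and TYRP1 did not exceed 2.34 and 2.27 CPM, while DCT ran from 0.128 to 1063 CPM (median 68.3 CPM). The summed level of the 8 melanocyte markers lay between 344 and 361 CPM with guide 2, between 553 and 567 CPM with guide 1 and between 1005 and 1076 CPM in control cells in DMSO. In trametinib it lay between 458 and 472 CPM with guide 2, between 746 and 767 CPM with guide 1 and between 2236 and 2369 CPM in control cells, and in vemurafenib between 457 and 486 CPM with guide 2, between 779 and 799 CPM with guide 1 and between 2312 and 2347 CPM in control cells. Mitochondrially encoded genes took 3.13% to 3.6% of counts in knockout cells given a drug, 2.33% to 2.74% in knockout cells in DMSO, 2.05% to 2.38% in control cells given a drug and 1.58% to 1.68% in control cells in DMSO. KRT1 had no count in any of the 27 libraries, while KRT14 ran from 3.32 to 15.0 CPM. CD3E had no count in 19 libraries and does not stand for the other leukocyte markers, which are not reported here. Summed levels of 4 keratinocyte and 3 endothelial markers did not exceed 15.5 and 6.64 CPM in any library. S100B, a marker that Schwann cells share with melanocytes, was present in all 27 libraries at 17.3 to 98.8 CPM (median 48.0 CPM). The summed level of 4 fibroblast markers, led by COL1A1, was 23.9 CPM in each library with guide 2, between 16.2 and 17.9 CPM with guide 1 and between 9.62 and 10.4 CPM in control cells in DMSO. In trametinib it was 33.9 to 36.1 CPM with guide 2, 25.1 to 26.9 CPM with guide 1 and 13.3 to 14.4 CPM in control cells, and in vemurafenib 27.6 to 29.2 CPM, 20.3 to 21.5 CPM and 10.8 to 13.0 CPM in the same populations. The part of these differences in the results was not tested, and in bulk RNA fewer expressing cells and less RNA per cell cannot be told apart. Replicate 3 of guide 2 cells in vemurafenib stood apart from its group. Its chi-square over genes, divided by the degrees of freedom, was 12.3 against replicate 1 and 8.38 against replicate 2, where replicates 1 and 2 gave 3.49 and pairs within the other groups 2.97 to 8.43. Without it 1 call on the 6 factors changed in the 14 planned comparisons, that of EGR2 between knockout and control cells in vemurafenib, given with that result.

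Promoter windows of 250 bases upstream of a transcript start were read from RefSeq (GRCh38.p14) and were found for 3 of the 6 genes. They are shown because EGR1 and EGR2 moved in opposite directions in knockout cells in DMSO and both have a window with a CArG box, and because the ETV1 start at the gene's outer edge lies beside a CIC octamer. Capitals mark CArG boxes in the EGR1 and EGR2 windows, and the ETS core and the CIC octamer in the ETV1 window.
EGR1, chr5:138465229-138465478, plus strand: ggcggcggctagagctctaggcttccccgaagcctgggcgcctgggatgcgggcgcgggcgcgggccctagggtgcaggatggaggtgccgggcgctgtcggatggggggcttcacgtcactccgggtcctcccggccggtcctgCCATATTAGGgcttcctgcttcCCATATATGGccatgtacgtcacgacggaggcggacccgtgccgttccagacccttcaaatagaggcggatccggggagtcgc
EGR2, window 3, chr10:62816367-62816616, minus strand: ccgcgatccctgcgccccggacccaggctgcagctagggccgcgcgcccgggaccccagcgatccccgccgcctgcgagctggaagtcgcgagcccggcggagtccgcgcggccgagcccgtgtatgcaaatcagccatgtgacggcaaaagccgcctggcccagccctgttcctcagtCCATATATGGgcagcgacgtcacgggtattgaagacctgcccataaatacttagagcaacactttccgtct
ETV1, window 2, chr7:13991426-13991675, minus strand: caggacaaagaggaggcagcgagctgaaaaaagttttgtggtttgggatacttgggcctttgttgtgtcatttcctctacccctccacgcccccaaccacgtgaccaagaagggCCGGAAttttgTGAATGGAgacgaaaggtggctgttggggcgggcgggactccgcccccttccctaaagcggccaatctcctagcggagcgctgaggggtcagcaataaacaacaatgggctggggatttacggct

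The EGR1 window held CArG boxes at bases 105 to 96 and 83 to 74 before the start, with the letters CCATATTAGG and CCATATATGG. The EGR2 window held 1, with the letters CCATATATGG, at bases 71 to 62, and the other EGR2 windows held none. All motifs were searched on both strands, and the matches shown do not overlap each other. A CArG box was present in 1.16% of 35114 windows of this length. In the ETV1 window the ETS core CCGGAA lay at bases 136 to 131 and the CIC octamer TGAATGGA at bases 125 to 118. Of the other ETV1 windows, window 1 held CCGGAA at bases 141 to 136 and window 4 at bases 137 to 132. CCGGAA was present in 14.5% of all windows and TGAATGGA in 0.832%. The EGR sites GCGTGGGCG and GCGGGGGCG, the CIC octamer TGAATGAA and the cyclic AMP response element TGACGTCA, present in 0.721%, 4.72%, 1.4% and 1.65% of windows, were not in any window of these 3 genes. The matches describe letters and not binding.

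In control cells in DMSO the PEA3 genes were the more abundant family once length was taken into account. Per kilobase of exon, ETV4 stood at 70.4 CPM, ETV5 at 31.1 CPM, ETV1 at 13.1 CPM, EGR1 at 8.56 CPM, EGR3 at 5.25 CPM and EGR2 at 0.037 CPM. Both drugs lowered all 3 PEA3 genes, EGR1 and EGR3 in control cells. A gene was called at an adjusted p under 0.05 in edgeR's quasi-likelihood test, adjusted over the 25199 genes. Trametinib lowered 6 of 6 genes, where 32.5% of all tested genes were called lower, and vemurafenib lowered 5 of 6, where 31.6% were. With so many genes called, the size of the fall says more than the call. The median log2 fold change was -2.92 with trametinib and -2.59 with vemurafenib over the 6 genes, against 0.06 with either drug over all genes tested. The comparisons of both drugs share the DMSO libraries.

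**Figure D1:**
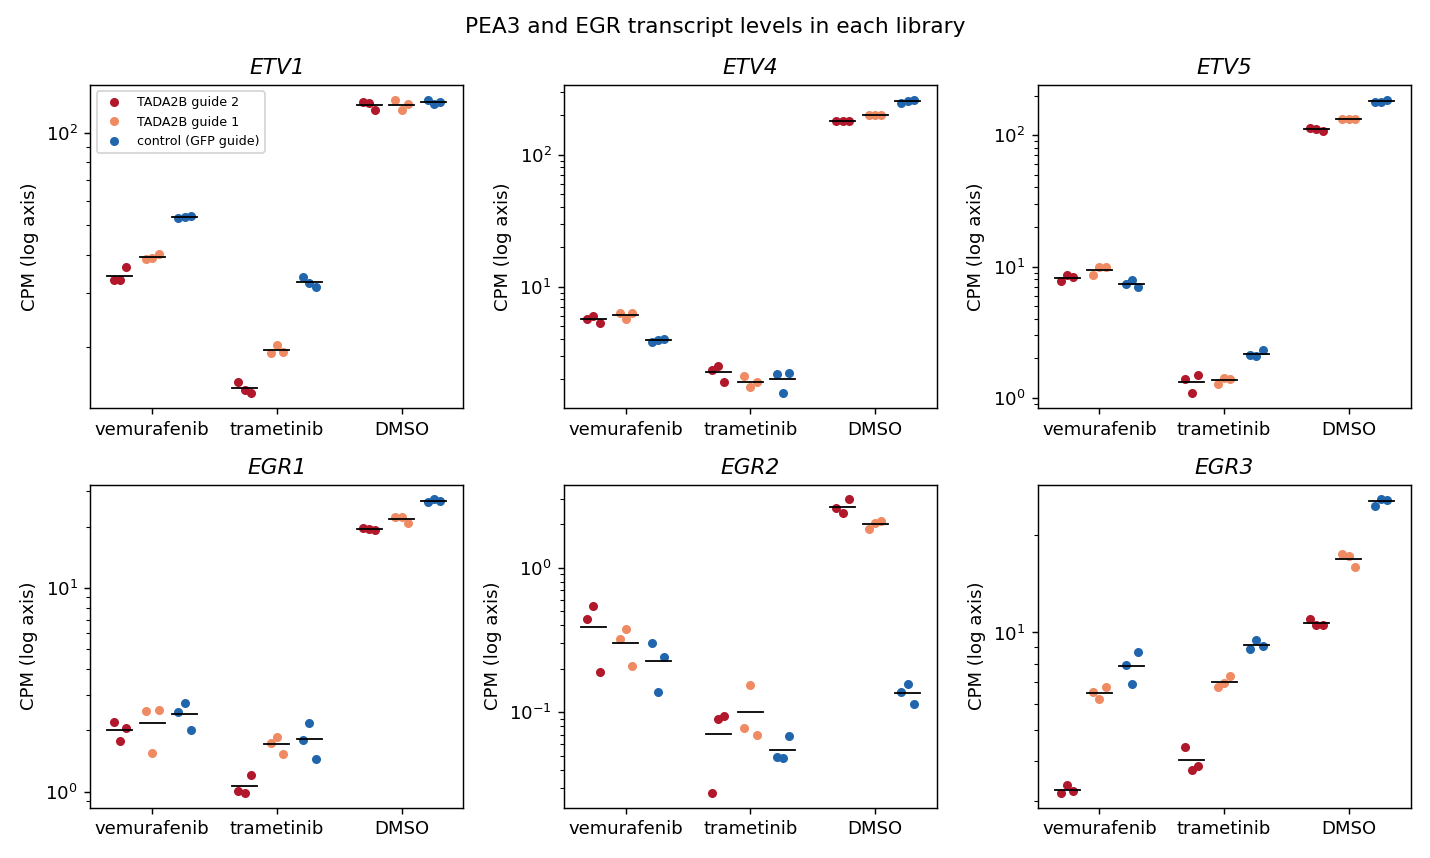
Level of each gene in every library, in CPM on a log axis that differs between panels. Points are libraries, lines are means of 3, colours are the cell populations, and treatments run along the horizontal axis. The PEA3 genes, EGR1 and EGR3 lie lower under both drugs in each population, and EGR2 stands high only in knockout cells in DMSO.

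ETV4 (ENSG00000175832, chromosome 17, 43527844 to 43579620, minus strand, hg38) activates genes of invasion and branching growth in several tissues. It stood at 2.18, 1.55 and 2.23 CPM in control cells in trametinib, and at 248, 253 and 261 CPM in DMSO, a 128-fold fall (log2 -7.00 ± 0.06 SE, adjusted p = 2.54e-53). In vemurafenib the 3 libraries held 3.79, 3.93 and 3.99 CPM, a 65.1-fold fall (log2 -6.02 ± 0.06, adjusted p = 4.23e-52). Trametinib and DMSO libraries were thus far apart, and every vemurafenib library lay above every trametinib library. Among all tested genes sorted by log2 fold change, ETV4 was number 29 from the bottom with trametinib and number 32 with vemurafenib. Exons of ETV4 overlap those of the helicase gene DHX8 on the other strand, and DHX8 averaged 211 CPM in trametinib, 208 CPM in vemurafenib and 233 CPM in DMSO. The strand setting of the counting is not given in the sources used here.

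ETV5 (ENSG00000244405, chromosome 3, 186046308 to 186110318, minus strand) is needed in mouse for the renewal of spermatogonial stem cells. It stood at 2.11, 2.10 and 2.32 CPM in control cells in trametinib, and at 178, 177 and 186 CPM in DMSO, an 83.0-fold fall (log2 -6.38 ± 0.06, adjusted p = 5.42e-53). In vemurafenib it stood at 7.35, 7.88 and 6.96 CPM, a 24.4-fold fall (log2 -4.61 ± 0.05, adjusted p = 5.39e-50). The ranges of the 3 treatments did not overlap. ETV5 was number 51 from the bottom with trametinib and number 100 with vemurafenib. Exons of ETV5 overlap those of DGKG, a lipid kinase gene on the same strand, which averaged 4.37 CPM in trametinib, 4.87 CPM in vemurafenib and 12.8 CPM in DMSO.

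ETV1 (ENSG00000006468, chromosome 7, 13891228 to 13991425, minus strand), the PEA3 factor best known as a lineage survival factor in gastrointestinal stromal tumours, kept much more of its transcript. It stood at 33.9, 32.4 and 31.5 CPM in control cells in trametinib, and at 128, 124 and 125 CPM in DMSO, which left 25.9% of the DMSO level (log2 -1.95 ± 0.04, adjusted p = 1.82e-39). In vemurafenib the libraries held 52.6, 53.3 and 53.6 CPM, or 42.2% of the DMSO level (log2 -1.24 ± 0.04, adjusted p = 6.18e-32). The 3 treatments were again apart in every library. With trametinib ETV4 kept 0.779% and ETV5 1.20% of the DMSO level, so the 3 PEA3 genes spanned a wide range of falls. In rank, ETV1 was number 1265 from the bottom.

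EGR1 (ENSG00000120738, chromosome 5, 138465490 to 138469315, plus strand), the founding EGR gene, links growth factor signals to slower transcription programmes. It stood at 1.80, 2.18 and 1.44 CPM in control cells in trametinib, and at 26.5, 27.3 and 26.8 CPM in DMSO, a 14.8-fold fall (log2 -3.89 ± 0.11, adjusted p = 1.86e-31). In vemurafenib it stood at 2.45, 2.72 and 2.01 CPM, an 11.2-fold fall (log2 -3.49 ± 0.11, adjusted p = 3.22e-30). Both drugs were far below DMSO in every library, while the ranges of the drugs overlapped each other.

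EGR3 (ENSG00000179388, chromosome 8, 22687659 to 22693302, minus strand), a factor needed in mouse for muscle spindles, kept more of its transcript. It stood at 8.89, 9.49 and 9.11 CPM in control cells in trametinib, and at 24.7, 25.8 and 25.8 CPM in DMSO, which left 36% of the DMSO level (log2 -1.47 ± 0.07, adjusted p = 7.81e-25). In vemurafenib it stood at 7.94, 6.94 and 8.73 CPM, or 30.9% of the DMSO level (log2 -1.69 ± 0.07, adjusted p = 6.72e-27). All drug libraries lay below all DMSO libraries, and EGR3 was the gene whose vemurafenib libraries were all below its trametinib libraries. Exons of EGR3 overlap the transcript AC055854.1 on the other strand, which averaged 2.52 CPM in trametinib, 1.86 CPM in vemurafenib and 0.924 CPM in DMSO.

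EGR2 (ENSG00000122877, chromosome 10, 62811996 to 62919900, minus strand), the factor that drives myelination in Schwann cells, was close to the limit of detection in control cells. It had 4, 4 and 5 counts in trametinib, and 10, 12 and 8 counts in DMSO, a 2.47-fold fall that was called (log2 -1.30 ± 0.52, adjusted p = 0.0231). In vemurafenib it had 25, 10 and 19 counts, which overlapped DMSO and was not called (log2 0.74 ± 0.39, adjusted p = 0.0906). EGR2 no longer passed the test for trametinib when DMSO replicate 2 was left out (log2 -1.20, adjusted p = 0.071), when trametinib replicate 1 (log2 -1.23, adjusted p = 0.0623) or 2 was (log2 -1.22, adjusted p = 0.0646), and in limma voom (log2 -1.24, adjusted p = 0.0698). Without replicate 2 of control cells in vemurafenib the vemurafenib difference was called higher (log2 0.98, adjusted p = 0.0324).

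Knockout of TADA2B moved the 2 families in DMSO mostly downward, with EGR2 as the exception. Of the 6 genes, 4 were called lower, where 28.6% of all tested genes were, 1 was called higher, where 29.3% were, and ETV1 was not called. The share of all genes called either way was 57.9%, so that a call by itself says little here. The mean of both guides is the value tested. The median log2 fold change was -0.40 over the 6 genes and 0.00 over all genes.

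EGR2 had the largest knockout difference of the 6 in DMSO. It had 196, 197 and 200 counts with guide 2 (2.59, 2.41 and 2.98 CPM), 137, 155 and 166 counts with guide 1 (1.85, 2.05 and 2.12 CPM), and 10, 12 and 8 counts in control cells (0.139, 0.156 and 0.115 CPM). All 6 knockout libraries were above the 3 control libraries. The mean of the guides was 16.7-fold higher than control (log2 4.06 ± 0.29, adjusted p = 3.52e-17), and EGR2 was number 195 from the top of all tested genes. With guide 2 alone the rise was 19.2-fold and with guide 1 alone 14.5-fold.

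EGR3 had the largest fall. In DMSO it stood at 11.0, 10.6 and 10.6 CPM with guide 2, at 17.5, 17.2 and 15.9 CPM with guide 1, and at 24.7, 25.8 and 25.8 CPM in control cells. The 3 populations were apart, and the mean of the guides was 52.8% of control (log2 -0.92 ± 0.05, adjusted p = 7.10e-20). The transcript AC055854.1, which overlaps EGR3 on the other strand, averaged 2.81 CPM with guide 2, 2.44 CPM with guide 1 and 0.924 CPM in control cells.

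EGR1 stood at 19.6, 19.6 and 19.3 CPM with guide 2, at 22.3, 22.4 and 21.0 CPM with guide 1, and at 26.5, 27.3 and 26.8 CPM in control cells in DMSO. Every knockout library was below every control library, and the mean of the guides was 76.9% of control (log2 -0.38 ± 0.07, adjusted p = 1.58e-05). EGR1 and EGR2 moved in opposite directions, and a link to the letters CCATATATGG in their windows was not tested.

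ETV4 stood at 179, 178 and 179 CPM with guide 2, at 198, 198 and 199 CPM with guide 1, and at 248, 253 and 261 CPM in control cells in DMSO, or 74.2% of control (log2 -0.43 ± 0.03, adjusted p = 2.13e-15). DHX8, which overlaps ETV4, averaged 186 CPM with guide 2, 192 CPM with guide 1 and 233 CPM in control cells. ETV5 stood at 114, 112 and 107 CPM with guide 2, at 132, 132 and 132 CPM with guide 1, and at 178, 177 and 186 CPM in control cells, or 67.0% of control (log2 -0.58 ± 0.03, adjusted p = 4.17e-20). For both genes the 3 populations did not overlap, and guide 2 was the lowest. DGKG, which overlaps ETV5, went the other way, with averages of 23.1 CPM with guide 2, 22.3 CPM with guide 1 and 12.8 CPM in control cells.

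ETV1 stood at 125, 125 and 119 CPM with guide 2, at 127, 119 and 124 CPM with guide 1, and at 128, 124 and 125 CPM in control cells in DMSO. The populations overlapped, and the difference was not called (log2 -0.03 ± 0.03, adjusted p = 0.40).

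**Figure D2:**
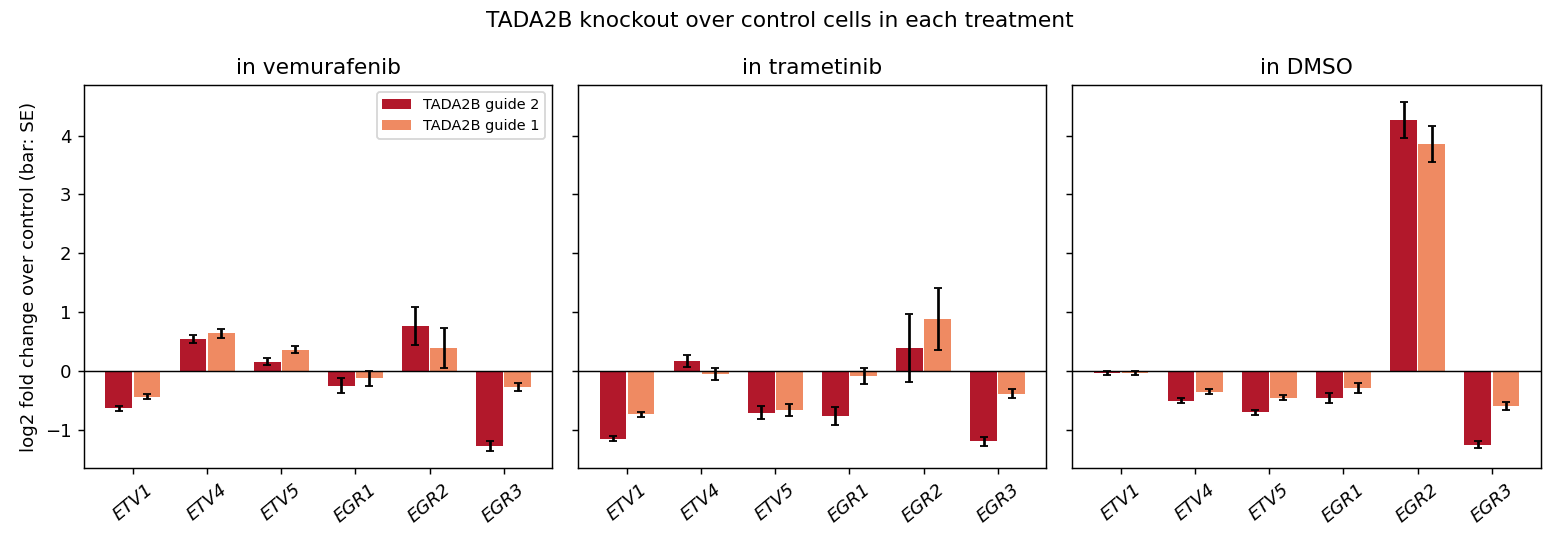
Log2 fold change of guide 2 cells and guide 1 cells over control cells, in vemurafenib, trametinib and DMSO (bars: standard errors). EGR3 is lower with both guides in each treatment, EGR2 is far above control in DMSO, and ETV1 is near 0 in DMSO and below 0 in both drugs.

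Under vemurafenib the knockout split the PEA3 genes. ETV4 and ETV5 were called higher, where 27.3% of all tested genes were, ETV1 and EGR3 were called lower, where 28.3% were, and EGR1 and EGR2 were not called. ETV4 stood at 5.72, 6.02 and 5.27 CPM with guide 2, at 6.26, 5.69 and 6.25 CPM with guide 1, and at 3.79, 3.93 and 3.99 CPM in control cells, 1.5-fold higher on average (log2 0.59 ± 0.07, adjusted p = 6.72e-11). All 6 knockout libraries lay above the control libraries, which is the opposite of the order in DMSO.

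ETV5 in vemurafenib stood at 7.72, 8.64 and 8.32 CPM with guide 2, at 8.63, 9.93 and 9.91 CPM with guide 1, and at 7.35, 7.88 and 6.96 CPM in control cells. Its ranges overlapped between guide 2 and control, and the mean of the guides was 1.20-fold higher (log2 0.26 ± 0.05, adjusted p = 2.80e-05). ETV1 stood at 33.1, 33.1 and 36.5 CPM with guide 2, at 38.7, 39.1 and 40.2 CPM with guide 1, and at 52.6, 53.3 and 53.6 CPM in control cells, or 69.0% of control (log2 -0.54 ± 0.03, adjusted p = 4.02e-19). Its 3 populations were apart from each other.

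EGR3 in vemurafenib stood at 3.18, 3.36 and 3.22 CPM with guide 2, at 6.54, 6.21 and 6.78 CPM with guide 1, and at 7.94, 6.94 and 8.73 CPM in control cells, or 58.4% of control (log2 -0.78 ± 0.07, adjusted p = 1.53e-14). Guide 2 lay far below the others, and guide 1 just below control. EGR1 stood at 2.20, 1.78 and 2.06 CPM with guide 2, at 2.48, 1.55 and 2.53 CPM with guide 1, and at 2.45, 2.72 and 2.01 CPM in control cells, and its difference was not called (log2 -0.19 ± 0.11, adjusted p = 0.164). Without replicate 3 of control cells in vemurafenib it was (log2 -0.30, adjusted p = 0.0411).

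EGR2 in vemurafenib had 35, 43 and 14 counts with guide 2, 23, 29 and 18 counts with guide 1, and 25, 10 and 19 counts in control cells. The populations overlapped, and the difference was not called (log2 0.58 ± 0.29, adjusted p = 0.0879). It passed the test when control replicate 1 (log2 0.84, adjusted p = 0.044), guide 1 replicate 3 (log2 0.69, adjusted p = 0.0448) or guide 2 replicate 3 (log2 0.74, adjusted p = 0.0199) in vemurafenib was left out.

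Under trametinib 4 of the 6 genes were called lower in knockout cells, where 28.8% of all tested genes were, and EGR2 and ETV4 were not called. ETV1 stood at 15.4, 14.6 and 14.2 CPM with guide 2, at 19.2, 20.3 and 19.3 CPM with guide 1, and at 33.9, 32.4 and 31.5 CPM in control cells, or 52.1% of control (log2 -0.94 ± 0.04, adjusted p = 1.86e-27). The 3 populations were apart. ETV5 stood at 1.40, 1.09 and 1.49 CPM with guide 2, at 1.28, 1.43 and 1.40 CPM with guide 1, and at 2.11, 2.10 and 2.32 CPM in control cells, or 62.2% of control (log2 -0.69 ± 0.09, adjusted p = 3.90e-09). Knockout libraries of ETV5 were all below control, with the guides overlapping.

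EGR3 in trametinib stood at 4.42, 3.76 and 3.85 CPM with guide 2, at 6.77, 6.98 and 7.31 CPM with guide 1, and at 8.89, 9.49 and 9.11 CPM in control cells, or 57.8% of control (log2 -0.79 ± 0.06, adjusted p = 2.08e-15). EGR1 stood at 1.01, 0.985 and 1.21 CPM with guide 2, at 1.73, 1.86 and 1.53 CPM with guide 1, and at 1.80, 2.18 and 1.44 CPM in control cells, or 74.6% of control (log2 -0.42 ± 0.13, adjusted p = 0.00385). The EGR3 populations were apart, whereas EGR1 overlapped control with guide 1. EGR1 did not pass the test when control trametinib replicate 2 was left out (log2 -0.26, adjusted p = 0.123).

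ETV4 in trametinib stood at 2.34, 2.49 and 1.88 CPM with guide 2, at 2.10, 1.74 and 1.88 CPM with guide 1, and at 2.18, 1.55 and 2.23 CPM in control cells (log2 0.06 ± 0.09, adjusted p = 0.607). EGR2 had 2, 7 and 8 counts with guide 2, 7, 15 and 6 counts with guide 1, and 4, 4 and 5 counts in control cells (log2 0.63 ± 0.49, adjusted p = 0.282). Neither was called. ETV4 overlapped between all populations, whereas EGR2 with guide 1 lay just above control and with guide 2 had libraries below and above it.

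Within knockout cells both drugs lowered 6 of 6 genes, where 33.1% of all tested genes were called lower with vemurafenib and 34.3% with trametinib (called higher: 36% and 37.2%). With trametinib, averaged over the guides, ETV4 kept 1.09% of the DMSO level, ETV5 1.12%, EGR2 3.77%, EGR1 6.56%, ETV1 13.8% and EGR3 39.4%. With vemurafenib ETV4 kept 3.12%, ETV5 7.32%, EGR1 10.2%, EGR2 15.0%, ETV1 29.8% and EGR3 34.3%. EGR2 thus fell 26.5-fold with trametinib (log2 -4.73 ± 0.23, adjusted p = 5.40e-24) and 6.68-fold with vemurafenib (log2 -2.74 ± 0.19, adjusted p = 3.23e-18). All knockout drug libraries lay below all knockout DMSO libraries for each of the 6 genes. Here, and for other genes said to be apart between groups, the share of all tested genes that were apart is not given. Being apart therefore describes these libraries and does not set the 6 genes off from other genes.

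**Figure D3:**
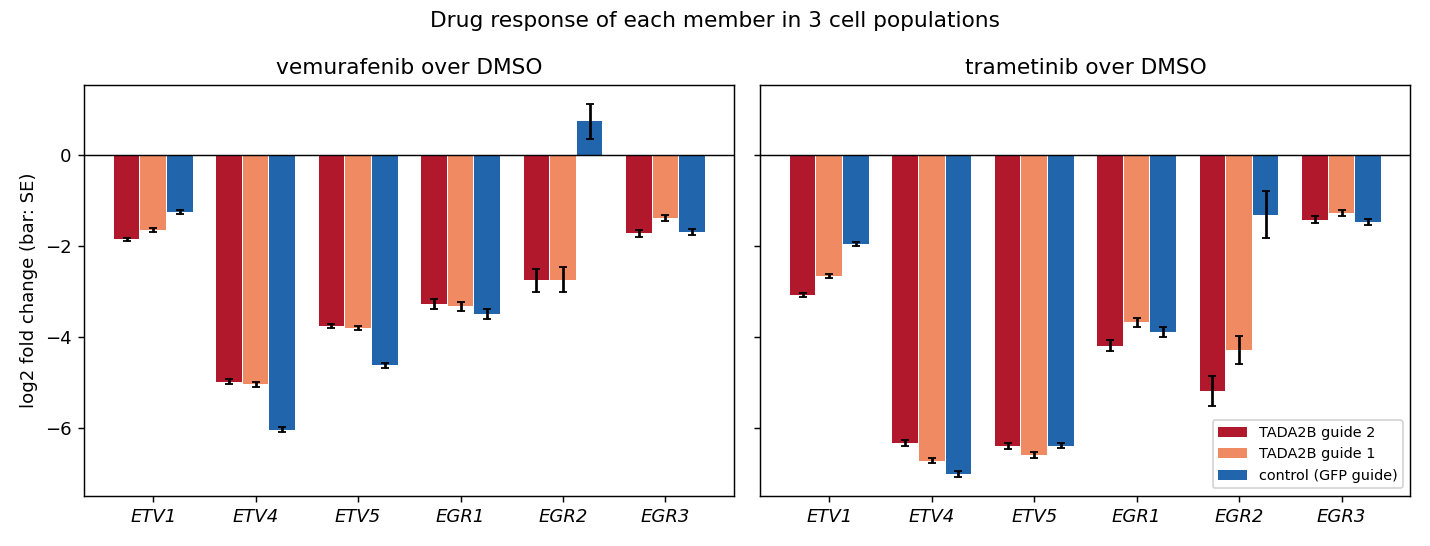
Log2 fold change of vemurafenib and of trametinib over DMSO in guide 2, guide 1 and control cells (bars: standard errors). ETV4 and ETV5 fall most, and ETV1 falls further in knockout cells with both drugs. EGR2 falls in knockout cells with both drugs, while in control cells it falls from few counts with trametinib and does not fall with vemurafenib.

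Whether the knockout altered the response was tested as the difference of the log2 responses. For vemurafenib 4 of the 6 genes were called, where 42.5% of all tested genes were, and for trametinib 3, where 43.9% were. The differences called above 0 were 20% of genes for vemurafenib and 20.8% for trametinib, and those below 0 were 22.4% and 23.2%. ETV1 fell further in knockout cells with vemurafenib (log2 difference -0.50 ± 0.05, adjusted p = 5.54e-13) and with trametinib (-0.91 ± 0.05, adjusted p = 2.61e-21). The EGR2 difference was also below 0, with -3.48 ± 0.43 for vemurafenib (adjusted p = 2.95e-09) and -3.43 ± 0.68 for trametinib (adjusted p = 3.60e-05). In control cells EGR2 did not fall with vemurafenib (log2 0.74 ± 0.39, adjusted p = 0.0906). Its 10, 12 and 8 counts in control cells in DMSO left little room for a fall like that of knockout cells. In both drugs the EGR2 values of knockout and control cells overlapped, and in DMSO they did not.

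ETV4 fell less in knockout cells, by 1.02 ± 0.07 on the log2 scale for vemurafenib (adjusted p = 2.33e-16) and by 0.49 ± 0.09 for trametinib (adjusted p = 2.45e-05). It started lower in knockout cells in DMSO (log2 -0.43 ± 0.03). In trametinib its level in knockout and control cells was not called different (log2 0.06 ± 0.09), whereas in vemurafenib it was higher in knockout cells (log2 0.59 ± 0.07). ETV5 fell less with vemurafenib (0.84 ± 0.06, adjusted p = 5.07e-16), and its difference for trametinib was not called (-0.11 ± 0.09, adjusted p = 0.389). EGR1 was not called for vemurafenib (0.19 ± 0.13, adjusted p = 0.271) or trametinib (-0.04 ± 0.14, adjusted p = 0.846), and neither was EGR3 (0.15 ± 0.09, adjusted p = 0.179, and 0.13 ± 0.08, adjusted p = 0.219). For vemurafenib, EGR1 was called without replicate 2 of guide 1 in vemurafenib (0.29, adjusted p = 0.0469), and EGR3 without replicate 3 of control cells in vemurafenib (0.23, adjusted p = 0.0425).

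**Figure D4:**
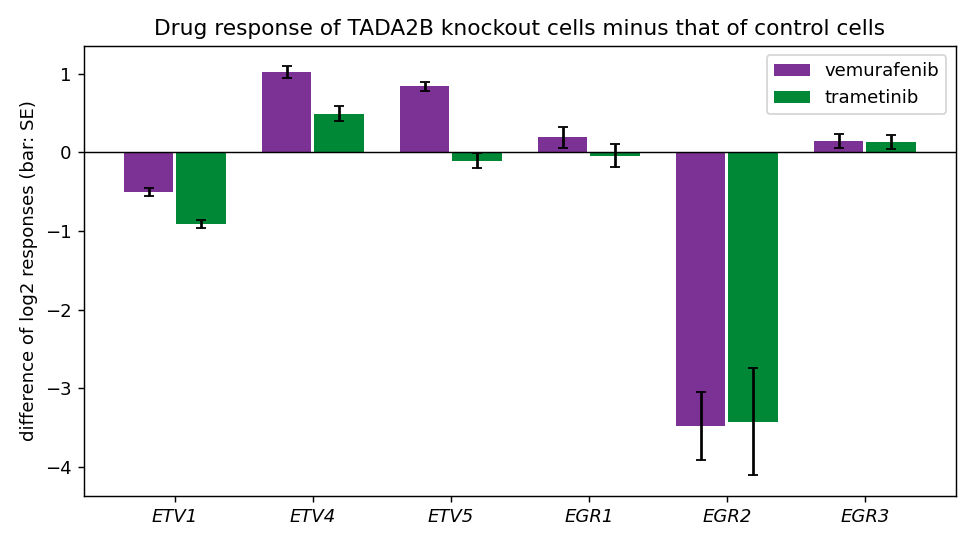
Log2 drug response of TADA2B knockout cells minus that of control cells for vemurafenib and trametinib (bars: standard errors). ETV1 and EGR2 lie below 0 and ETV4 above 0 with both drugs, and ETV5 lies above 0 with vemurafenib.

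With either guide alone ETV1, ETV4 and EGR2 were called in the same directions for both drugs, and ETV5 for vemurafenib. Of all tested genes 40.9% were called with guide 2 and 35.7% with guide 1 for vemurafenib, and 42.1% and 37.5% for trametinib. EGR3 was called with guide 1 for vemurafenib (0.32 ± 0.10, adjusted p = 0.0081) and not with guide 2 (-0.02 ± 0.10, adjusted p = 0.886). ETV4, for example, differed from control by 1.05 with guide 2 and 0.99 with guide 1 for vemurafenib, and by 0.68 with guide 2 (adjusted p = 1.03e-06) and 0.30 with guide 1 (adjusted p = 0.027) for trametinib. ETV1 differed by -0.60 with guide 2 and -0.40 with guide 1 for vemurafenib, and by -1.12 with guide 2 and -0.70 with guide 1 for trametinib.

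The drugs differ in target and in dose, and they left different levels behind. In vemurafenib compared with trametinib, 5 of the 6 genes were called higher in control cells, where 8.78% of all tested genes were, and EGR3 was called lower, where 7.56% were. ETV5 was 3.40-fold higher (log2 1.76 ± 0.08, adjusted p = 4.89e-24), ETV4 1.97-fold (log2 0.98 ± 0.09, adjusted p = 3.71e-12), and ETV1 1.63-fold (log2 0.71 ± 0.04, adjusted p = 9.52e-20). For these 3 genes all vemurafenib libraries lay above all trametinib libraries. EGR2 was 4.13-fold higher from few counts (log2 2.05 ± 0.46, adjusted p = 0.000817).

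EGR1 was 1.32-fold higher in vemurafenib with overlapping libraries (log2 0.40 ± 0.13, adjusted p = 0.0349), and EGR3 stood at 86.0% of its trametinib level (log2 -0.22 ± 0.07, adjusted p = 0.0271). Both calls rested on single libraries. EGR1 failed the test without replicate 1 or 3 in trametinib (log2 0.39 and 0.26, adjusted p = 0.0993 and 0.223) and without replicate 1 or 2 in vemurafenib (log2 0.37 and 0.30, adjusted p = 0.112 and 0.217), all of control cells. EGR3 failed it without replicate 2 in trametinib (log2 -0.19, adjusted p = 0.123) and without replicate 1 or 2 in vemurafenib (log2 -0.22 and -0.14, adjusted p = 0.0578 and 0.28).

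In knockout cells ETV1, ETV4, ETV5, EGR1 and EGR2 were again called higher in vemurafenib than in trametinib, where 10.9% of all tested genes were, and EGR3 was called lower, where 8.29% were. ETV5 was 6.54-fold higher (log2 2.71 ± 0.06, adjusted p = 3.44e-37) and was number 24 from the top of all tested genes. ETV4 was 2.85-fold higher and ETV1 2.16-fold higher. The difference between the drugs was larger in knockout than in control cells for ETV5 by 0.95 ± 0.10 on the log2 scale (adjusted p = 1.79e-09), for ETV4 by 0.53 ± 0.11 (adjusted p = 0.000956) and for ETV1 by 0.41 ± 0.05 (adjusted p = 3.54e-08). This test, chosen after the values were seen, called 5.9% of all tested genes, and EGR1, EGR2 and EGR3 were not called in it.

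The guides differed from each other for some of the genes. Of the 6 genes, 3 were called lower with guide 2 than with guide 1 in each treatment, where 8.85% of all tested genes were called lower in vemurafenib, 8.91% in trametinib and 7.29% in DMSO. Shares called higher were 7.12% in vemurafenib, 10.8% in trametinib and 4.64% in DMSO. EGR3 was the gene called in all 3 treatments, at 50.0% of the guide 1 level in vemurafenib (log2 -1.0 ± 0.08), 57.0% in trametinib (log2 -0.81 ± 0.08) and 63.4% in DMSO (log2 -0.66 ± 0.07). Its libraries did not overlap between guides in any treatment. ETV1 was called in vemurafenib (log2 -0.20 ± 0.04, adjusted p = 0.000129) and in trametinib (log2 -0.42 ± 0.04, adjusted p = 2.61e-10).

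ETV5 was called between guides in vemurafenib (log2 -0.21 ± 0.06, adjusted p = 0.00753) and in DMSO (log2 -0.25 ± 0.04, adjusted p = 4.75e-06), ETV4 in DMSO (log2 -0.15 ± 0.04, adjusted p = 0.00586), and EGR1 in trametinib (log2 -0.68 ± 0.15, adjusted p = 0.000747). In vemurafenib ETV5 failed the test without guide 1 replicate 2 or 3 (log2 -0.18 in both, adjusted p = 0.0661 and 0.072) or guide 2 replicate 1 (log2 -0.16, adjusted p = 0.0802). ETV4 was called in trametinib without replicate 3 of guide 2 (log2 0.35, adjusted p = 0.0152). A difference between guides in TADA2B transcript was called in vemurafenib and trametinib, at 87.4% and 84.0% of the guide 1 level.

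Genes around the 6 factors were read from lists. For these counts, 36.4% of all tested genes were called higher and 32.5% lower with trametinib in control cells, and 35.7% higher and 31.6% lower with vemurafenib. In knockout cells 27.3% were called higher and 28.3% lower in vemurafenib, 27.1% higher and 28.8% lower in trametinib, and 29.3% higher and 28.6% lower in DMSO. ELK1, ELK3, ELK4, FOSL1 and NAB2 each stand in a pair of lists.

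Of NAB1, NAB2 and WT1, the tested genes of a list of 4 EGR partners and relatives, 3 fell with trametinib and 3 with vemurafenib in control cells (median log2 -0.41 and -0.39). NAB2, a corepressor that EGR proteins induce and bind, averaged 53.8 CPM in trametinib and 70.9 CPM in DMSO (log2 -0.40 ± 0.04, adjusted p = 8.7e-13). WT1, whose zinc fingers recognise similar DNA, averaged 6.83 CPM in trametinib and 16.5 CPM in DMSO (log2 -1.28 ± 0.08, adjusted p = 1.7e-19). In knockout cells in DMSO all 3 were lower, with WT1 at 11.6 CPM and 16.5 CPM in control cells (log2 -0.51 ± 0.07). In trametinib and in vemurafenib NAB2 and WT1 were lower and NAB1, the other corepressor, was higher in knockout cells. NAB1 averaged 28.9 CPM in knockout and 25.2 CPM in control cells in trametinib (log2 0.20 ± 0.05, adjusted p = 0.001), and 30.1 CPM and 26.4 CPM in vemurafenib (log2 0.19 ± 0.05, adjusted p = 0.00155).

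Of SRF, MRTFA, MRTFB and the ternary complex factors ELK1, ELK3 and ELK4, 2 rose and 3 fell with trametinib in control cells, and as many with vemurafenib (median log2 -0.21 and -0.22). SRF averaged 42.1 CPM in trametinib and 57.0 CPM in DMSO (log2 -0.44 ± 0.04, adjusted p = 2.8e-12). ELK3 changed most, with 34.8 CPM in trametinib and 179 CPM in DMSO (log2 -2.37 ± 0.04). In knockout cells in DMSO 3 of the 6 rose and ELK3 fell (log2 -0.39 ± 0.03), while SRF was not called (log2 -0.02 ± 0.04, adjusted p = 0.70). ELK3 was higher in knockout than in control cells in vemurafenib, at 70.4 CPM and 57.4 CPM (log2 0.29 ± 0.03), and in trametinib, at 56.4 CPM and 34.8 CPM (log2 0.69 ± 0.03).

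Of 10 genes of CIC and PEA3 degradation, 3 rose and 5 fell with each drug in control cells (median log2 -0.39 with trametinib and -0.29 with vemurafenib). CIC itself averaged 207 CPM in trametinib and 117 CPM in DMSO (log2 0.83 ± 0.04, adjusted p = 1.5e-23). Its partner ATXN1 averaged 20.1 CPM in trametinib and 43.7 CPM in DMSO (log2 -1.12 ± 0.04). TRIB2 and TRIB1, pseudokinases that work with COP1, fell to 24.2 CPM and 11.1 CPM in trametinib, against 234 CPM and 47.8 CPM in DMSO (log2 -3.28 ± 0.04 and -2.11 ± 0.07), and COP1 was not called with either drug. In knockout cells 3 rose and 6 fell in DMSO, 3 rose and 4 fell in trametinib, and 5 rose and 5 fell in vemurafenib.

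Other genes that CIC represses mostly fell under the drugs. Of 11 such genes 10 fell and SHC3 was not called with trametinib in control cells (median log2 -3.20), and 9 fell and SHC4 rose with vemurafenib (median log2 -2.15), against medians of 0.06 over all genes. SPRY4, an inhibitor of receptor signalling, fell by 8.07 ± 0.05 on the log2 scale with trametinib, DUSP6, an ERK phosphatase, by 7.12 ± 0.07, and SPRY2 by 5.67 ± 0.06. In vemurafenib compared with trametinib 10 of the 11 were called higher in control cells, where 8.78% of all tested genes were. In knockout cells 11 were, where 10.9% of all tested genes were (median log2 0.79 in control and 1.46 in knockout cells). In knockout compared with control cells 6 rose and 5 fell in DMSO, 2 rose and 9 fell in trametinib, and 2 rose and 7 fell in vemurafenib. SPRY4 averaged 157 CPM in knockout and 443 CPM in control cells in DMSO (log2 -1.54 ± 0.03), SHC3 0.101 CPM and 0.295 CPM in trametinib (log2 -1.57 ± 0.33), and SHC4 8.54 CPM and 16.9 CPM in trametinib (log2 -1.06 ± 0.05). For the difference of responses 4 were called above 0 and 5 below for vemurafenib, where 20% and 22.4% of all tested genes were. For trametinib 4 were above and 7 below, where 20.8% and 23.2% were.

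**Figure D5:**
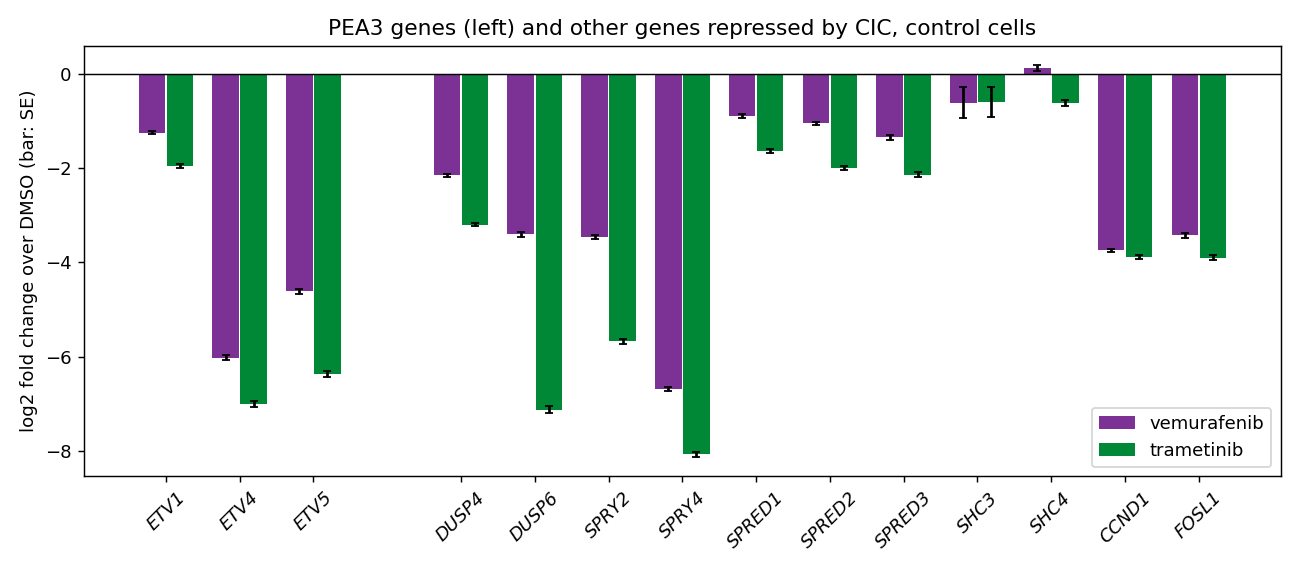
Log2 fold change of vemurafenib and trametinib over DMSO in control cells for the 3 PEA3 genes (left) and 11 other genes repressed by CIC (bars: standard errors). SPRY4, DUSP6, ETV4 and ETV5 fall most, and vemurafenib bars are shorter than trametinib bars for the PEA3 genes.

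Of 24 other immediate early genes, 8 rose and 15 fell with trametinib in control cells, and 6 rose and 15 fell with vemurafenib (median log2 -0.48 and -0.62), and EGR1 and EGR3 fell with the larger share. JUN, a subunit of the AP-1 factor, averaged 611 CPM in trametinib and 9.5 CPM in DMSO (log2 6.00 ± 0.05), and ATF3, a stress-induced factor, 153 CPM and 2.66 CPM (log2 5.84 ± 0.06). IER3 averaged 6.08 CPM in trametinib and 118 CPM in DMSO (log2 -4.28 ± 0.05). In knockout compared with control cells 13 rose and 8 fell in DMSO, 7 rose and 14 fell in trametinib, and 8 rose and 14 fell in vemurafenib. FOS averaged 9.55 CPM in knockout and 58.7 CPM in control cells in trametinib (log2 -2.70 ± 0.05), ATF3 30.8 CPM and 153 CPM (log2 -2.37 ± 0.04), and JUN 94.3 CPM and 423 CPM in vemurafenib (log2 -2.28 ± 0.03).

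Of the other ETS family genes, 20 of 25 were tested, of which 8 rose and 8 fell with trametinib in control cells, and 7 rose and 7 fell with vemurafenib (median log2 0.17 and 0.06). ETS1, the founding member, averaged 484 CPM in trametinib and 97.1 CPM in DMSO (log2 2.32 ± 0.03), the opposite of the PEA3 genes. ELF3, an epithelial factor, averaged 0.64 CPM in trametinib and 0.125 CPM in DMSO (log2 2.36 ± 0.29). In knockout compared with control cells 9 rose and 8 fell in DMSO, 7 rose and 6 fell in trametinib, and 9 rose and 7 fell in vemurafenib. ELF3 averaged 3.49 CPM in knockout and 0.272 CPM in control cells in vemurafenib (log2 3.58 ± 0.18), and EHF, its relative, 2.13 CPM and 0.476 CPM (log2 2.13 ± 0.18). ELF5 averaged 0.0961 CPM in knockout and 0.00478 CPM in control cells in DMSO, too few counts for a fold.

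Of 11 tested genes out of 12 reported elsewhere as EGR targets, 5 rose and 6 fell with trametinib in control cells, and 6 rose and 5 fell with vemurafenib (median log2 -0.17 and 0.40). The growth factor genes PDGFB and PDGFA averaged 0.592 and 0.864 CPM in trametinib, against 2.16 and 2.78 CPM in DMSO, and F3, the coagulation starter tissue factor, 0.918 CPM and 3.58 CPM. In knockout cells in DMSO, where EGR2 was high, 4 rose and 5 fell (median log2 -0.11). PMP22, a myelin gene under EGR2 in Schwann cells, averaged 82.9 CPM in knockout and 153 CPM in control cells (log2 -0.89 ± 0.03), and PDGFA 4.86 CPM and 2.78 CPM (log2 0.79 ± 0.11). In trametinib 4 rose and 5 fell, and in vemurafenib 4 rose and 6 fell, among them PDGFB at 1.19 CPM in knockout and 0.353 CPM in control cells (log2 1.69 ± 0.23).

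Of 7 tested genes out of 9 reported as PEA3 targets, 3 rose and 3 fell with trametinib in control cells, and 3 rose and 2 fell with vemurafenib (median log2 -0.03 and -0.17). MMP1, a collagenase, averaged 0.0994 CPM in trametinib, 0.197 CPM in vemurafenib and 5.62 CPM in DMSO (log2 -5.78 ± 0.16 and -4.82 ± 0.14). In knockout compared with control cells 6 rose and 1 fell in DMSO (median log2 1.32), 4 rose and 2 fell in trametinib, and 3 rose and 2 fell in vemurafenib. MMP1 averaged 44.3 CPM in knockout and 5.62 CPM in control cells in DMSO (log2 2.97 ± 0.07), and PTGS2, the inducible cyclooxygenase, 6.09 CPM and 1.16 CPM (log2 2.37 ± 0.13). ETV4 and ETV5 were lower in the same comparison. KIT had 0 counts in control cells in DMSO. Against a floor of 3 counts over that group, its mean of 0.0483 CPM in knockout cells in DMSO was 3.52-fold higher. In control cells its means of 0.0489 CPM with trametinib and 0.0741 CPM with vemurafenib were 3.57-fold and 5.41-fold higher than the same floor. These means are low, and their sampling error is not part of the folds. With KIT at these folds the 3 medians were the same.

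Of 18 listed MAPK cascade genes, 5 rose and 12 fell with trametinib in control cells, and 4 rose and 11 fell with vemurafenib (median log2 -0.14 and -0.12). EGFR, a receptor at its head, averaged 3.39 CPM in trametinib and 17.0 CPM in DMSO (log2 -2.33 ± 0.07). The ribosomal S6 kinase genes RPS6KA3 and RPS6KA1 averaged 175 and 42.6 CPM in trametinib, against 442 and 94.6 CPM in DMSO. In knockout compared with control cells 6 rose and 8 fell in DMSO, 6 rose and 9 fell in trametinib, and 7 rose and 9 fell in vemurafenib. EGFR averaged 60.2 CPM in knockout and 17.0 CPM in control cells in DMSO (log2 1.80 ± 0.05), while RPS6KA2 averaged 9.47 CPM and 19.8 CPM (log2 -1.06 ± 0.05).

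The genes most like each factor over the 27 libraries were sought among protein-coding genes of at least 1 log2 CPM on average, by Pearson's r of log2(CPM + 1), as a description, since libraries of a group share their treatment. ETV1 was most like DUSP4 (r = 0.991), BCL2 (0.986) and NAMPT (0.984). ETV4 was most like TOP1 (0.996), SLC20A1 (0.996) and CCNB1 (0.995). ETV5 was most like HIVEP3 (0.992), TGFA (0.988) and TRIB1 (0.988). DUSP4 and TRIB1 also stand in the lists above.

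EGR1 was most like FOSL1 (r = 0.994), SH2B3 (0.994) and PFDN2 (0.993). EGR2 was like HBEGF (r = 0.962) and SMOX (0.961), which stood among its 3 most alike. EGR3 was most like CDK2AP1 (0.978), NAB2 (0.966) and GNAS (0.965). No gene was among the 3 most alike of more than 1 factor.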

How the data were processed

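Per the labels' protocols, polyA RNA from the cells was sequenced after a stranded KAPA library preparation. The authors deposited raw counts of reads per gene. Names of bcl2fastq, HISAT2 and HTSeq with hg38 come from the submitters' processing notes, and no source used here gives versions or the counting's strand setting. Of 58721 genes, 25199 passed edgeR's filterByExpr, and 0 rows named no gene. Counts were scaled by TMM (factors 0.866 to 1.09) and tested with the quasi-likelihood test of edgeR 4.0.16 in R 4.3.3 over 27 libraries in 9 groups (18 residual degrees of freedom), with Benjamini-Hochberg adjustment over all tested genes and calls at an adjusted p under 0.05. Knockout values are means of both guides. 14 comparisons were planned, and 16 by single guide and 1 between drugs were added. Errors after log2 values are standard errors.

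Nothing says that libraries of a group are separate cultures, so p-values measure the spread between libraries, which may be technical (common biological coefficient of variation 4.02%). The lowest and highest library totals, 67502300 and 92513726, limit precision for EGR2 most. No libraries of a group were copies of each other.

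The members, lists and named genes were chosen with earlier results of these data known. The text names the 6 factors, TADA2B, the 3 genes most like each factor, any member of the lists of direct regulators, and up to 3 called members with the largest changes in the drug and in the knockout comparisons per list. A few genes that these rules name are not reported here. Gene models come from GENCODE 29. Alternatives were DESeq2 1.42.0 (size factors, Wald test), limma 3.58.1 voom, no filter, a replicate block, fewer groups in the fit and each library left out.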

Additional observations from a re-analysis of the deposited data

Results flagged for a closer look

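The drug response of knockout cells differed from that of control cells, by the test of that difference in edgeR, for 4 of the 6 factors. For vemurafenib the log2 differences (knockout minus control) were -0.50 for ETV1, 1.02 for ETV4, 0.84 for ETV5 and -3.48 for EGR2. For trametinib they were -0.91 for ETV1, 0.49 for ETV4 and -3.43 for EGR2. Of all tested genes 42.5% passed the same test for vemurafenib and 43.9% for trametinib. Control cells in DMSO had 10, 12 and 8 EGR2 counts, which left little room for a fall like that of knockout cells. Between knockout and control cells EGR2 was not called in vemurafenib (log2 0.58) or in trametinib (log2 0.63). ETV4 was not called in trametinib either (log2 0.06), while in DMSO it was lower in knockout cells (log2 -0.43). Values of single genes in groups of 3 libraries were not searched for outliers.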

How the results depend on the processing

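Of 84 results on single factors, all 84 kept their direction and side of the threshold with DESeq2's size factors, with DESeq2's Wald test and with the replicate block, 83 without the low-count filter and 81 with limma voom. Deviations of same-numbered libraries had a median r of 0.0142 over 108 pairs, 31 of them over 0.1. Differently numbered libraries had a median r of -0.0058 over 216 pairs, 48 of them over 0.1. Of 27 libraries 13 correlated best with their own number, which does not show that sharing between same-numbered libraries was absent. When only the groups compared were fitted, 77 of 81 results kept their direction and side of the threshold. EGR2 then failed the filter in 3 comparisons with trametinib libraries and has no value there. With limma voom EGR2 was not called for trametinib in control cells (log2 -1.24), nor EGR1 between vemurafenib and trametinib (0.40). With only the groups compared, EGR1 was not called there (0.39), nor ETV5 between guides in vemurafenib (-0.21), while EGR1 (-0.17) and EGR2 (0.40) were called between guides in DMSO, which made 5 factors called against 3. The cause of these changes was not tested. ETV1 between guides in DMSO (-0.0011) changed sign with voom (0.00026) and without the filter (0.00089).

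Leaving out 1 library gave 810 values, of which 781 kept both, and ranges follow for comparisons with any change. In control cells EGR2 ran from -1.47 to -1.20 for trametinib and from 0.49 to 0.98 for vemurafenib, and vemurafenib against trametinib from 0.26 to 0.55 for EGR1 and from -0.30 to -0.14 for EGR3. Knockout differences in trametinib ran from -0.10 to 0.14 for ETV4 and from -0.55 to -0.26 for EGR1, and in vemurafenib from -0.30 to -0.089 for EGR1 and from 0.34 to 0.84 for EGR2. Differences of responses ran from -0.18 to 0.12 for EGR1 with trametinib, and with vemurafenib from 0.080 to 0.29 for EGR1 and from 0.066 to 0.23 for EGR3. Between guides the ranges were -0.027 to 0.025 for ETV1 in DMSO (also 0.0017), 0.14 to 0.35 for ETV4 and -0.15 to 0.079 for ETV5 in trametinib, and -0.27 to -0.16 for ETV5 and -0.31 to 0.0076 for EGR1 in vemurafenib.

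Depth limits EGR2 most, with at most 25 counts in a control library. Guide sequences were not used here, all groups are 1 cell line, and each guide is 1 population. The part of overlapping genes in the counts of ETV4, ETV5 and EGR3 was not tested.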
